A study of Rattus norvegicus with 64 samples.

Results

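The basement membrane is the thin sheet of extracellular matrix under epithelia and endothelia and around smooth muscle and Schwann cells. It is built from 2 self-assembling networks, one of type IV collagen and one of laminin, which nidogens and the heparan sulfate proteoglycan perlecan tie together. Each laminin is a trimer of an alpha, a beta and a gamma chain, and cells bind it through integrins and dystroglycan. In the bladder wall such sheets lie under the urothelium, around blood vessels and around each detrusor muscle cell.

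The genes described here were 10 rat symbols: the type IV collagen chains Col4a1, Col4a2 and Col4a5, the laminin chains Lama4, Lama5, Lamb1, Lamb2 and Lamc1, the linker Nid1 and the perlecan gene Hspg2. A gene was measured where the RefSeq transcript given for an array probe matched its symbol. This held for 4 of the 10, namely Col4a1 and Lamc1 with 2 probes each and Lama5 and Lamb2 with 1 probe each, out of 15715 genes named on the array. Col4a2, Col4a5, Lama4, Lamb1, Nid1 and Hspg2 were not analysed here. All results below therefore concern 1 collagen chain and 3 laminin chains.

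Male Wistar rats underwent hemicystectomy, the removal of part of the bladder, and the defect was closed with bladder acellular matrix (BAM), a bladder wall stripped of its cells. The graft was either BAM only or BAM seeded with adipose stromal cells (ASCs, called ADSCs in the sample labels). These cells came from the retroperitoneal fat of male Wistar rats and were used at the third passage. The methods of the study call the operated rats syngeneic, and a figure legend calls the seeded cells autologous. The reconstructed wall was taken after 7, 30, 90 or 180 days. Total RNA was hybridized to 64 one-color Agilent arrays, 8 for each of the 8 combinations of graft and day, each array labeled as a separate biological replicate. No group of unoperated bladders was analysed here, and the tissue held host cells as well as any ASCs that remained. Each value below is a log2 signal from which the 75th percentile of the gene spots on its array was subtracted, so that 0 is a rather bright spot and negative values are dimmer. The number of arrays, 8 in a group, limited the precision. A gene was called different where limma gave an adjusted p under 0.01 and the fold exceeded 1.5. Genes with several probes were represented by the probe with the highest mean signal, called the brightest probe, and the other probe is given beside it as the dimmer probe.

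Each of the 8 groups lay on a slide of its own, so slide and group cannot be told apart in any comparison between groups. One scan date held the arrays of 7 and 30 days, and the other those of 90 and 180 days. Between 73.3% and 95.6% of gene spots stood well above background at the early days, against 35.5% to 64.6% at the late days. The median local background ran from 42 to 52 at the early days. It was 321 to 365.5 on the arrays of BAM only at 90 days and 99 to 120 on those of seeded BAM at that time. The brightest probe of each gene was well above background on all 64 arrays, and no probe of the 4 genes was saturated. Urothelium, smooth muscle, endothelium, pericyte and fibroblast markers all stood well above background on at least 1 array of every group. In RNA of whole bladder wall, fewer cells of a type and less RNA per cell cannot be told apart.

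Upstream sequences are shown for Col4a1, Lama5 and Lamc1 because these genes were called lower in the unseeded graft at 30 against 7 days, as described below. They come from RefSeq, build GRCr8, are written 5′ to 3′ and stop at the base before the transcript start. Capitals mark matches to the GC box letters GGGCGG on either strand, and a run of capitals can hold overlapping matches. Col4a1 and Col4a2 start in opposite directions on chromosome 16, and the 76 bases between their starts, written on the Col4a1 strand, are the only sequence printed for this pair. Lamc1 and Lama5 are shown by the 250 bases before their starts, on the minus strand of chromosomes 13 and 3.
Col4a1 and Col4a2, chr16:84885521-84885596, plus strand: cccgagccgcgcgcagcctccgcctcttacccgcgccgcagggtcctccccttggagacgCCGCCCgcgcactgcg
Lamc1, chr13:68051987-68052236, minus strand: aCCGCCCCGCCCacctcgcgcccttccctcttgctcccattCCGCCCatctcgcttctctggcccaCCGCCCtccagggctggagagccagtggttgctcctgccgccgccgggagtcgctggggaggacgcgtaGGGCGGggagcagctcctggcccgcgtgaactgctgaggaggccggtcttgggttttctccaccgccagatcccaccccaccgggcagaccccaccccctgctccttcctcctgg
Lama5, chr3:187695975-187696224, minus strand: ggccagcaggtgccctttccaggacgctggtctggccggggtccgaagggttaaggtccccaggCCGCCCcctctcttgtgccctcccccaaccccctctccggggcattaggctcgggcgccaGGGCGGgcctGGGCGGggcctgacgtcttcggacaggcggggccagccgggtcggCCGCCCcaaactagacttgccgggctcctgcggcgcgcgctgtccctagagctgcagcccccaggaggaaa

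The stretch between the collagen genes held 1 GC box match, the Lamc1 sequence 5 and the Lama5 sequence 4. The sequences of Lamc1 and Lama5 held no CCAAT or TATAAA on either strand, nor did the shorter stretch between the collagen genes. The full 250 bases before the Col4a1 start held 1 GC box match and 1 CCAAT match, the latter outside the stretch printed. Of 33469 rat promoters of 250 upstream bases, 30.5% held a GC box match, 34.0% CCAAT and 12.9% TATAAA, so the GC box letters are common. Members that were not measured held them as well. Their 250 upstream bases had 5 GC box matches for Hspg2, 2 each for Col4a2, Lamb1 and Nid1, 1 for Col4a5 and 0 for Lama4. These matches describe the letters and say nothing of what binds there. The tables used held no upstream sequence for Lamb2.

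At 7 days after reconstruction Col4a1, which encodes the alpha 1 chain of the ubiquitous type IV collagen network, was lower in bladders with seeded BAM. The values of its brightest probe had a lowest of 3.23, a median of 3.76 and a highest of 4.45 in the seeded graft, against 4.16, 4.60 and 4.94 in BAM only. In 7 of 8 seeded arrays the value lay below that of every unseeded array, and the remaining seeded array lay within the unseeded range. The difference was -0.75 on the log2 scale (SE 0.186, 95% interval -1.12 to -0.37), a fold of 1.68, with an adjusted p of 0.00271 in limma. The dimmer probe gave -0.62 (SE 0.161, adjusted p = 0.00399) and was also called lower. That call was lost with the percentile over detected probes (-0.52, adjusted p = 0.0143) and with separate fits (adjusted p = 0.0317). Over all genes the median difference at this day was -0.13, and relative to it Col4a1 was lower by a log2 difference of -0.61. Without the seeded array of replicate 5 the difference was -0.66 with an adjusted p of 0.0103, and with quantile normalization it was -0.62 with 0.0129, so that both settings ended the call.

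Lamc1 encodes the gamma 1 chain, which most laminin trimers share. At 7 days its brightest probe ran from 1.77 to 2.35 in the seeded graft with a median of 2.08, and from 2.02 to 3.40 in BAM only with a median of 2.48. The groups overlapped, with 4 of 8 seeded arrays below every unseeded one. The difference of -0.46 (SE 0.132, adjusted p = 0.00948) corresponded to a fold of 1.38, under the fold required, so Lamc1 was not called. Its dimmer probe gave -0.39 with an adjusted p of 0.123.

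The other laminin chains showed no called difference at 7 days. Lama5, the alpha chain of many epithelial and vessel laminins, differed by -0.05 (95% interval -0.38 to 0.28, adjusted p = 0.86). Lamb2, the beta chain known from muscle, nerve and kidney basement membranes, differed by 0.19 (95% interval -0.19 to 0.58, adjusted p = 0.546). Counted over the 4 genes, 1 was called at 7 days, and over all genes the share called was 7.75%.

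**Figure D1:**
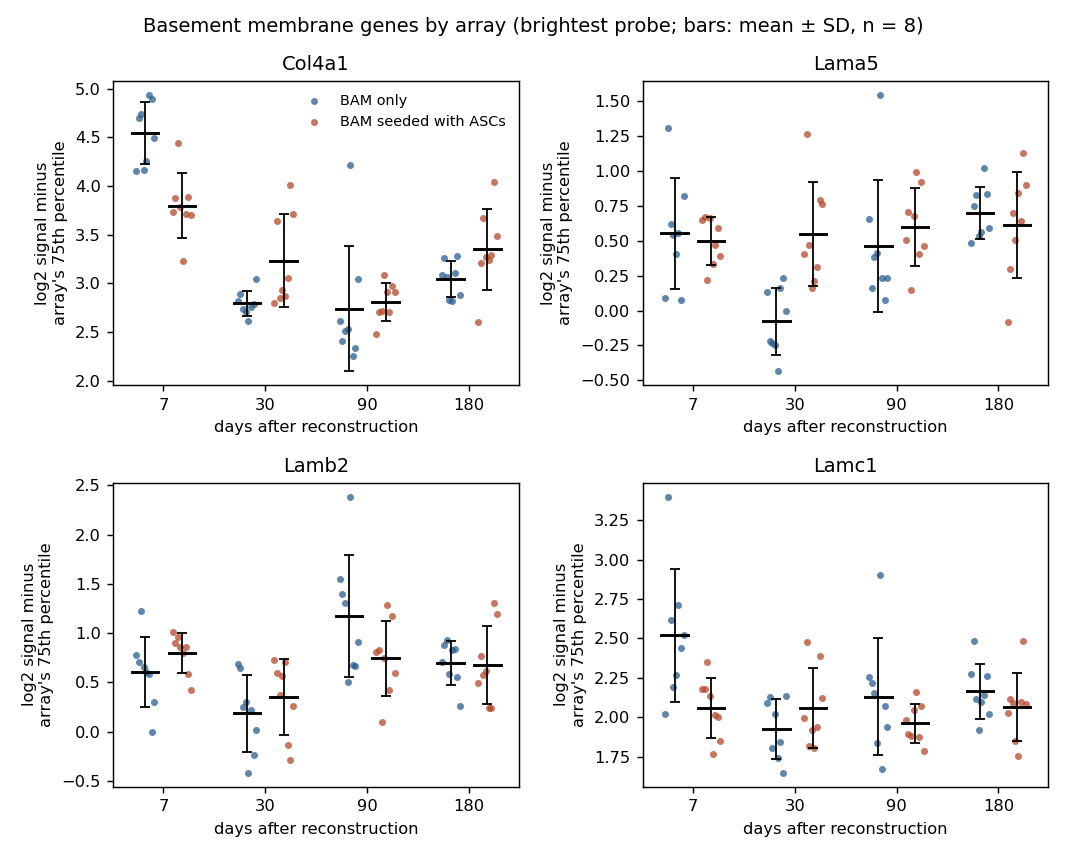
Each point is 1 array of the brightest probe of Col4a1, Lama5, Lamb2 or Lamc1 by days after reconstruction, on the log2 scale relative to the 75th percentile, with black bars for the mean and SD of 8 arrays. Col4a1 in BAM only lies between 4.16 and 4.94 at 7 days and between 2.61 and 3.04 at 30 days, and 1 array of BAM only at 90 days reaches 4.22.

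At 30 days after reconstruction none of the 4 genes was called between grafts, while 1.97% of all genes were. In limma, 2 of the 4 had an unadjusted p under 0.05, as did 27.1% of all genes. Lama5 in the seeded graft ran from 0.16 to 1.26 with a median of 0.44, and in BAM only from -0.43 to 0.23 with a median of -0.11. The seeded graft was the higher one, and 6 of its 8 arrays lay above every unseeded array. The difference was 0.62 (SE 0.164, 95% interval 0.29 to 0.95, fold 1.54), with an adjusted p of 0.0132, short of the threshold. It passed, as 0.66 with an adjusted p of 0.00607, when the background was corrected by normexp, and also when the percentile was taken over the detected probes (0.67, adjusted p = 0.00747). Col4a1 differed by 0.44 (SE 0.186, adjusted p = 0.124) and by 0.42 with its dimmer probe (adjusted p = 0.091). Lamb2 and Lamc1 differed by 0.16 and 0.13, with intervals that included 0 (-0.22 to 0.55 and -0.13 to 0.40).

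The change in the graft difference of Col4a1 between 7 and 30 days was itself tested. The difference at 30 days minus that at 7 days was 1.19 for the brightest probe (SE 0.263, adjusted p = 0.00573) and 1.04 for the dimmer probe (adjusted p = 0.00551), and both were called. With quantile normalization the dimmer probe gave 0.99 (adjusted p = 0.0112) and was not called. Among all genes 0.872% were called in this test. For 180 days minus 7 days the values were 1.06 (adjusted p = 0.00272) and 1.07 (adjusted p = 0.000404), beside 7.13% of all genes. Both comparisons share the arrays of 7 days. The graft difference of Lama5, Lamb2 or Lamc1 was not called as changed between any pair of days, and no member was called by its brightest probe for 90 minus 7 days, 90 minus 30, 180 minus 30 or 180 minus 90 days. The shares of all genes called in these 4 tests were 4.23%, 7.69%, 1.87% and 7.29%.

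At 90 days the probes of Col4a1 disagreed. Its brightest probe had a lowest of 2.48, a median of 2.81 and a highest of 3.09 in the seeded graft, and 2.25, 2.52 and 4.22 in BAM only. These groups overlapped widely, with a difference of 0.07 (95% interval -0.30 to 0.44, adjusted p = 0.774). The dimmer probe had -2.15, -1.53 and -1.22 in the seeded graft and -1.03, -0.54 and 0.06 in BAM only. Here the groups did not overlap, and the difference was -1.002 (SE 0.161, adjusted p = 1.68e-06), called lower. With normexp background correction it was -0.80 (adjusted p = 1.19e-05). The dimmer probe stood well above background on 7 of 8 arrays of BAM only at 90 days and on all 8 in each other group. The arrays of that group also had the highest local background of the series, as given above, and the part of the background in this difference was not tested.

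**Figure D2:**
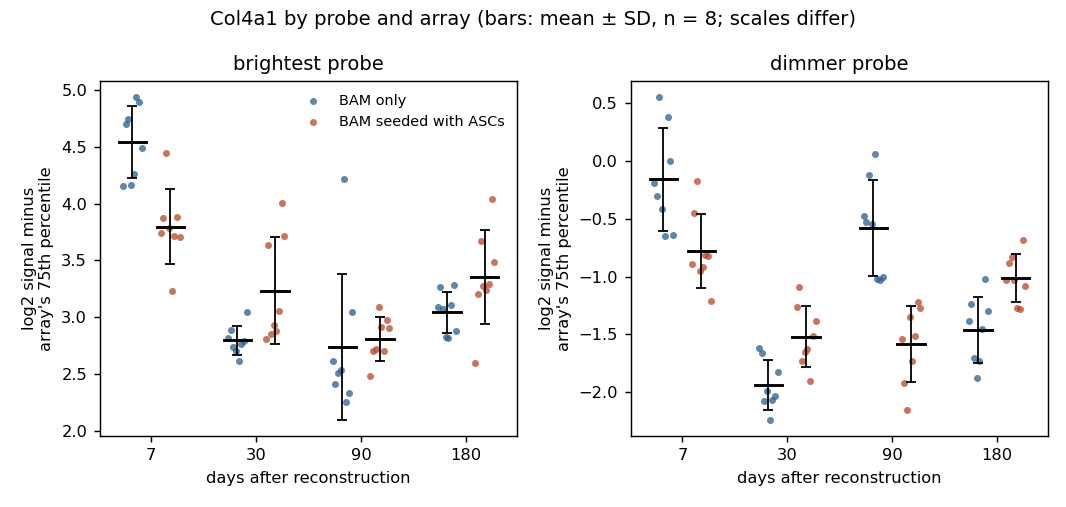
Col4a1 by its 2 probes, with 1 point for each array, days on the x axis, log2 signal relative to the 75th percentile on the y axis, bars for mean and SD of 8 arrays, and separate scales. Both probes are highest in BAM only at 7 days and part at 90 days, where the dimmer probe of BAM only lies between -1.03 and 0.06 and that of seeded BAM between -2.15 and -1.22.

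For the laminin chains at 90 days, Lamb2 ran from 0.10 to 1.28 in the seeded graft with a median of 0.78, and from 0.51 to 2.39 in BAM only with a median of 1.11. The ranges overlapped, and the difference of -0.43 (SE 0.193) had an adjusted p of 0.0709. It was -0.26 (adjusted p = 0.242) without replicate 5 of BAM only, the array with the highest value. Lama5 differed by 0.14 (adjusted p = 0.505) and Lamc1 by -0.17 (adjusted p = 0.301). None of the 4 genes was called at 90 days by its brightest probe, beside 10.2% of all genes, and 1 of the 4 had an unadjusted p under 0.05, as did 45.0% of all genes.

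At 180 days none of the 4 genes was called by limma, none had an unadjusted p under 0.05 (12.6% of all genes did), and 1.05% of all genes were called. Col4a1 had a lowest of 2.60, a median of 3.29 and a highest of 4.04 in the seeded graft and 2.82, 3.08 and 3.28 in BAM only. The seeded values spanned the unseeded ones on both sides, with a difference of 0.31 (95% interval -0.06 to 0.68, adjusted p = 0.516). The dimmer probe gave 0.45 (95% interval 0.13 to 0.78, adjusted p = 0.103). Lama5, Lamb2 and Lamc1 differed by -0.08, -0.02 and -0.10, with adjusted p of 0.908 to 0.999.

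**Figure D3:**
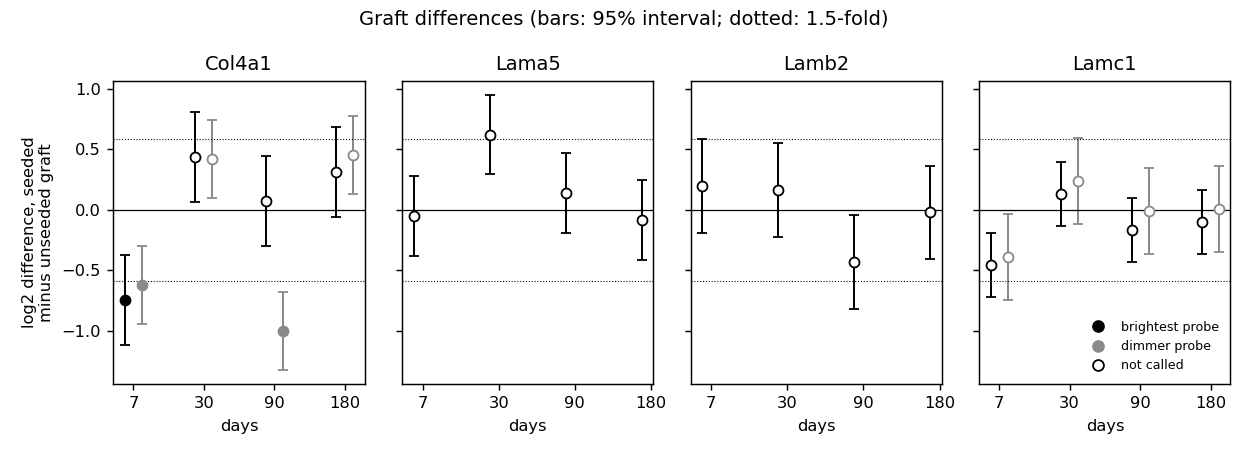
Log2 difference of seeded minus unseeded graft on the y axis by day, for each gene and probe, with 95% intervals. Filled points were called, and dotted lines mark 1.5-fold. The filled points are Col4a1 at 7 days with both probes (-0.75 and -0.62) and its dimmer probe at 90 days (-1.002).

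Within the graft of BAM only, 3 of the 4 genes were called at 30 against 7 days, all 3 lower. Among all genes 10.1% were called in either direction and 5.17% lower. Col4a1 fell from a range of 4.16 to 4.94 to one of 2.61 to 3.04. No array at 30 days reached the lowest value at 7 days (4.16). The difference was -1.75 (SE 0.186, fold 3.36, adjusted p = 1.51e-10), and with the dimmer probe it was -1.78 (adjusted p = 1.23e-12).

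Lama5 and Lamc1 fell by less. Lama5 ran from 0.07 to 1.30 at 7 days with a median of 0.55, and from -0.43 to 0.23 at 30 days with a median of -0.11. The groups overlapped, and the difference was -0.63 (SE 0.164, adjusted p = 0.00345). Lamc1 ran from 2.02 to 3.40 at 7 days with a median of 2.48, and from 1.65 to 2.13 at 30 days with a median of 1.93. Its ranges overlapped as well, and the difference was -0.59 (SE 0.132, adjusted p = 0.000561), a fold of 1.51 that lay just over the threshold. The dimmer Lamc1 probe gave -0.33 (adjusted p = 0.213). Without replicate 2 of the 7-day group, Lama5 differed by -0.52 (adjusted p = 0.0166) and Lamc1 by -0.47 (adjusted p = 0.00351), and neither was called. Without replicate 5 of the 30-day group the values were -0.58 (adjusted p = 0.0107) and -0.57 (adjusted p = 0.0017), again without a call. The Lamc1 call was also lost without replicate 3 or 6 of the 7-day group (-0.58 and -0.57) or without replicate 3, 6 or 7 of the 30-day group (-0.58, -0.58 and -0.55), and with normexp (-0.57), separate fits (adjusted p = 0.0139) or the mean of all probes (-0.46, adjusted p = 0.0188). Lamb2 differed by -0.42 and was not called.

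Cell markers moved over the same step in BAM only, where 10.1% of all genes were called in either direction and 5.17% lower. Of 8 endothelium markers 5 were called lower, with a median difference of -0.92, and the mean level of the list went from a range of -0.39 to 0.37 at 7 days to one of -0.94 to -0.68 at 30 days. Of 4 pericyte markers 2 were called lower (median -0.77), with list means of -0.01 to 0.55 and -0.71 to 0.04. Of 10 urothelium markers 5 were called higher (median 1.68), with list means of -2.91 to 2.36 and 1.46 to 2.98. Of 8 smooth muscle markers 2 were called higher, and of 6 fibroblast markers 2 lower. The list means of leukocyte markers ran from -0.53 to 1.06 at 7 days and from 0.54 to 1.35 at 30 days. Those of Schwann cell markers ran from -3.84 to -2.84 and from -3.35 to -2.62. Adipocyte and skeletal muscle markers are not described here. The part of these cells in the fall of Col4a1, Lama5 and Lamc1 was not tested.

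Between 7 and 30 days in the seeded graft none of the 4 genes was called by its brightest probe. In limma 2 had an unadjusted p under 0.05, as did 41.4% of all genes, and 6.83% of all genes were called. Col4a1 differed by -0.56 (adjusted p = 0.0204), and its dimmer probe by -0.74 (adjusted p = 0.000509), which was called. Without replicate 7 of the 30-day group the brightest probe gave -0.67 (adjusted p = 0.00571), which is a call. Lamb2 differed by -0.45, Lama5 by 0.05 and Lamc1 by -0.0014.

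From 30 to 90 days, a step that also crossed the scan dates, 41.3% of all genes were called in BAM only and 28.6% in seeded BAM. Among the 4 genes Lamb2 was called higher in BAM only. It ran from -0.42 to 0.68 at 30 days and from 0.51 to 2.39 at 90 days. The ranges overlapped, with 5 of 8 arrays at 90 days above every array at 30 days. The difference was 0.99 (SE 0.193, adjusted p = 1.26e-05), and 0.82 (adjusted p = 9.84e-05) without replicate 5 of the 90-day group. Lama5 differed by 0.54 (adjusted p = 0.00375) with a fold of 1.45, and by 0.59 (adjusted p = 0.00203), a call, without replicate 7 of the 90-day group. Col4a1 differed by -0.06 with its brightest and by 1.35 with its dimmer probe (adjusted p = 2.01e-10), the latter called higher. No gene was called by its brightest probe in seeded BAM over this step, where 2 of the 4 had an unadjusted p under 0.05, as did 57.1% of all genes. Over this step in BAM only, 5 of 8 smooth muscle markers (median 0.92) and 3 of 8 endothelium markers (median 0.38) were called higher and 3 of 6 fibroblast markers lower. These counts stand beside the 41.3% of all genes called in either direction, and 3 of 8 is near that share. The mean level of the smooth muscle list ran from 2.28 to 3.10 at 30 days and from 2.63 to 4.32 at 90 days, when its genes Tagln, Myh11 and Actg2 were saturated on 7, 8 and 8 of the 8 arrays. The part of muscle cells in the Lamb2 difference was not tested.

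From 90 to 180 days none of the 4 genes was called by its brightest probe in either graft, beside 7.83% of all genes in BAM only and 2.67% in seeded BAM. In limma 1 gene of the 4 had an unadjusted p under 0.05 in each graft, as did 34.5% of all genes in BAM only and 25.7% in seeded BAM. In BAM only the dimmer Col4a1 probe fell by 0.88 on the log2 scale (adjusted p = 2.05e-05) and was called lower, while its brightest probe differed by 0.30. In seeded BAM Col4a1 differed by 0.54 (adjusted p = 0.045).

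Ordered by group mean of the brightest probe, Col4a1 was highest in BAM only at 7 days (4.54 ± 0.32, SD, n = 8) and in seeded BAM at 7 days (3.80 ± 0.33). Seeded BAM at 180 days (3.35 ± 0.41) and at 30 days (3.23 ± 0.47), BAM only at 180 days (3.04 ± 0.18), seeded BAM at 90 days (2.81 ± 0.19) and BAM only at 30 days (2.79 ± 0.13) followed, and BAM only at 90 days (2.74 ± 0.64) was lowest. Of the 7 steps between neighbors in this order, 3 exceeded the larger of the 2 SDs: the first, the second and that from BAM only at 180 days to seeded BAM at 90 days. For Lama5, 1 of 7 steps did, which set BAM only at 30 days (-0.08 ± 0.24) below the other groups, whose means lay between 0.46 and 0.70. No neighboring groups of Lamb2 (means 0.19 to 1.18) or Lamc1 (1.93 to 2.52) differed beyond that spread. The dimmer Col4a1 probe gave another order. There BAM only at 90 days (-0.58) came next after BAM only at 7 days (-0.16), and BAM only at 30 days (-1.94) was lowest. The brightest-probe mean of BAM only at 90 days includes replicate 5, at 4.22.

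Lamb2 and Lamc1 are partners in several laminin trimers, and their brightest probes were correlated across the 8 arrays of each group. Pearson's r ran from -0.30 in seeded BAM at 30 days to 0.94 in BAM only at 90 days, with 7 of the 8 groups above 0. The highest had an exact permutation p of 0.0027 (two-sided, 0.0218 after adjustment over 8 groups) and a Spearman's rho of 0.88 (exact permutation p = 0.0072, adjusted 0.029). Without the 2 arrays farthest from the median, r was 0.81 over 6 arrays. The next highest r, 0.77 in seeded BAM at 90 days, had an exact permutation p of 0.0252 and an adjusted p of 0.101. Seeded BAM at 7 days also had a rho of 0.88 (exact permutation p = 0.0072, adjusted 0.029). Its r was 0.67 (exact permutation p = 0.0791, adjusted 0.127). Both genes share array, slide position and scaling, whose part in these correlations was not tested.

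The genes whose 8 group means ran most like the average profile of the 4 genes were Clec14a (r = 0.98), Podxl (0.97), Antxr1 (0.96), Thbs2 (0.95) and Nfatc4 (0.95), out of 5213 genes considered. The 4 genes themselves followed that profile less closely, with r of 0.85 for Lamc1, 0.84 for Col4a1, 0.65 for Lama5 and 0.43 for Lamb2. Their values were centered but not scaled, so Col4a1, with the widest range of group means, weighs most in the profile. All of these are correlations over 8 groups that share slides and scan dates, and they carry no test. Clec14a is a lectin of endothelial cells, Podxl a sialomucin of vessels and podocytes, Antxr1 a collagen-binding membrane receptor, Thbs2 a matricellular glycoprotein and Nfatc4 a transcription factor. Clec14a, as an example, had group means of 0.94 in BAM only and 0.64 in seeded BAM at 7 days, and of -0.20 and 0.28 at 30 days.

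Cell markers also differed between the grafts. Among all 15715 genes, 413 were called higher and 805 (5.12%) lower in seeded BAM at 7 days. At 7 days 8 of 10 urothelium markers were called higher in seeded BAM, with a median difference of 2.05, and their mean level ran from 1.23 to 2.97 there and from -2.91 to 2.36 in BAM only. Of 8 endothelium markers, 2 were called lower, the von Willebrand factor gene Vwf (-0.997, adjusted p = 1.23e-05) and the VEGF receptor gene Kdr (-0.68, adjusted p = 0.00311). Their list's mean level was -0.59 to -0.04 in seeded BAM and -0.39 to 0.37 in BAM only. Of 4 pericyte markers, Pdgfrb was called lower (-0.69, adjusted p = 0.00633), and none of the 6 fibroblast or 8 smooth muscle markers was called. At 30 days no marker of these 5 lists was called. All 10 urothelium markers were higher in seeded BAM in their estimates, with a median difference of 0.90 beside 0.08 for all genes. In limma 5 of them had an unadjusted p under 0.05, as did 27.1% of all genes. The mean level of that list ran from 2.83 to 3.98 in seeded BAM and from 1.46 to 2.98 in BAM only. For leukocyte markers, outside these 5 lists, it ran from -1.13 to 0.66 in seeded BAM and from 0.54 to 1.35 in BAM only. The part of these cells in the values of the 4 genes, and in the epithelial genes named below, was not tested.

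The rest of the basement membrane machinery was described with a list of 41 measured genes. At 7 days 4 of 41 were called lower and 0 higher, where 5.12% of all genes were lower, with a median difference of -0.19 beside -0.13 for all genes. Of these, 3 modify or fold collagen chains in the endoplasmic reticulum. The collagen chaperone Serpinh1 had a median of 3.33 in seeded BAM and 4.32 in BAM only and differed by -0.82 (SE 0.167, adjusted p = 0.00026). The prolyl 3-hydroxylase family gene P3h3 differed by -0.74 (adjusted p = 0.00147) and the lysyl hydroxylase Plod3 by -0.63 (adjusted p = 3.58e-05). The 12 modifying and crosslinking genes had a median difference of -0.36, beside -0.13 for all genes. The remaining gene of the 4 called lower was Col15a1, a collagen of vessel and muscle basement membrane zones, at -0.66 (adjusted p = 0.00731). Its call was lost without any one of replicates 1, 2, 4, 5, 6, 7 and 8 of seeded BAM or 1, 3, 6, 7 and 8 of BAM only, with the least in size without replicate 6 of BAM only (-0.57, adjusted p = 0.0305). It was also lost with quantile normalization (-0.47, adjusted p = 0.0735), the percentile over detected probes (-0.56, adjusted p = 0.0244), the replicate block (adjusted p = 0.0111) and separate fits (adjusted p = 0.0294). The Plod3 call was lost, on its fold, without replicate 6 of BAM only (-0.58, adjusted p = 0.000226) and with normexp (-0.57), quantile normalization (-0.54) and the percentile over detected probes (-0.52).

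At 30 days 4 of 41 were called higher and 0 lower, where 1.37% of all genes were higher, with a median difference of 0.15 beside 0.08 for all genes. Itgb4 and Itga6 encode the integrin that holds basal epithelial cells in hemidesmosomes. Itgb4 ran from 2.81 to 4.46 in seeded BAM and from 2.06 to 3.03 in BAM only, and differed by 1.05 (SE 0.219, adjusted p = 0.00167). Itga6 ran from -1.08 to 0.18 and from -1.77 to -0.90, and differed by 0.91 (SE 0.209, adjusted p = 0.00403). Both pairs of ranges overlapped with the seeded median above the highest unseeded value. Col7a1, the collagen of anchoring fibrils, ran from -1.02 to 0.45 and from -2.66 to -1.15, without overlap, and differed by 1.28 (SE 0.312, adjusted p = 0.00718). Hmcn1, a large fibulin family protein, was well above background on 5 of 8 seeded and 0 of 8 unseeded arrays. With the main scaling its seeded mean was 1.92-fold above a floored unseeded mean, and limma gave an adjusted p of 0.00666. The floored mean takes, on each unseeded array, the higher of the probe's own signal and the lowest signal well above background. The fitted difference of Hmcn1 was 0.31 (adjusted p = 0.563) with normexp and 0.68 (adjusted p = 0.122) with quantile normalization. The 1.92-fold is therefore no minimum under other processing. The Itga6 call was lost without replicate 2, 6 or 7 of seeded BAM or 2 or 4 of BAM only, least in size without replicate 2 of seeded BAM (0.83, adjusted p = 0.016). The Col7a1 call was lost without replicate 1, 2, 7 or 8 of seeded BAM or 2, 3, 4, 5 or 8 of BAM only, least in size without replicate 2 of BAM only (1.14, adjusted p = 0.0266), and also with the replicate block (1.28, adjusted p = 0.0102). The Itgb4 call was lost with separate fits (adjusted p = 0.0104). The Hmcn1 call was lost without replicate 1, 2, 6, 7 or 8 of seeded BAM or 1, 2, 4, 5, 6 or 8 of BAM only, least in size without replicate 1 of seeded BAM (1.36, adjusted p = 0.025).

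The graft difference of none of the 41 genes was called as changed between 7 and 30 days, and 12 of them had an unadjusted p under 0.05 in limma, as did 25.9% of all genes.

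At 90 days 2 of 41 genes passed the thresholds, both by a higher scaled value in seeded BAM, where 3.16% of all genes were called higher. The list had a median of -0.08 beside -0.16 for all genes. These were Bgn and Sparc, a small proteoglycan and a collagen-binding glycoprotein. Bgn was saturated on 6 of 8 seeded and on 8 of 8 unseeded arrays, and Sparc on 3 and 7, so their scaled values give neither a direction nor a fold. At 180 days 0 of 41 were called by limma, and 3 had an unadjusted p under 0.05, as did 12.6% of all genes.

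**Figure D4:**
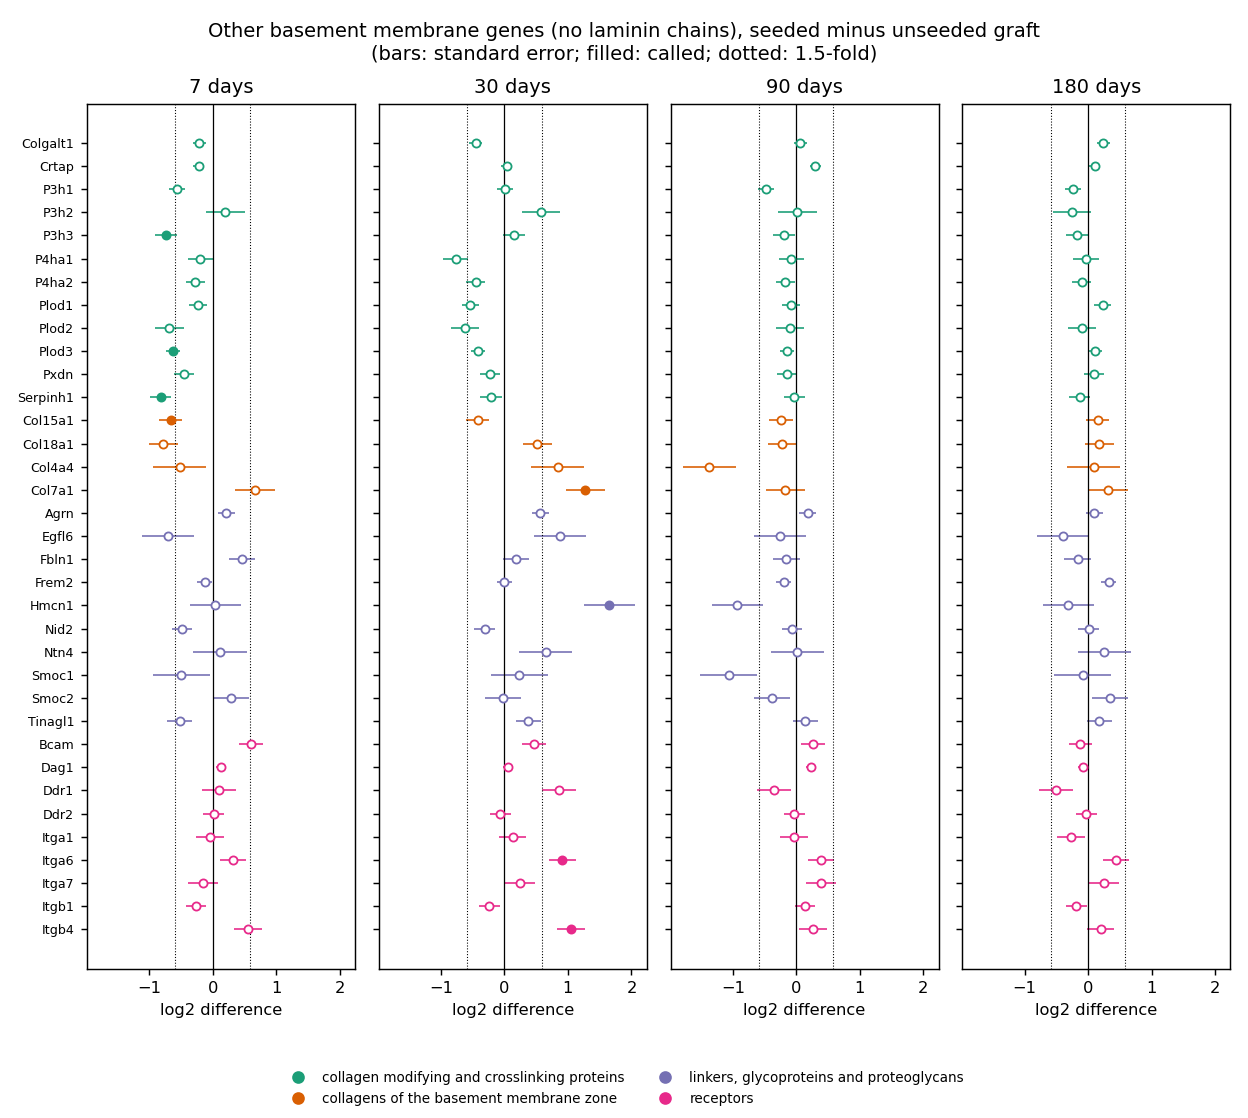
Log2 difference of seeded minus unseeded graft on the x axis for the further basement membrane genes other than laminin chains, one row each, in panels of 7, 30, 90 and 180 days, colored by role, with standard errors. Bgn and Sparc, saturated on most arrays, are not drawn. Filled points were called: 4 to the left at 7 days and 4 to the right at 30 days, and none at 90 or 180 days.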

How the data were processed

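Reconstructed bladder wall of male Wistar rats was measured on 64 Agilent rat arrays. The authors deposited the scanner output of each array, made with Agilent Feature Extraction 12.0.1.1 per the file headers, in which the processed signal is a background-corrected intensity that is not on a log scale. Their series matrix holds the same intensity for 61 arrays and other values for 3, and served as an alternative. Control spots and outlier spots were removed, log2 of the processed signal was reduced by the 75th percentile of each array, and spots of a probe were averaged. Of 30367 probes, 18758 were named through RefSeq accessions, giving 15715 genes, and for a gene with several probes the one with the highest mean was used. A probe was well above background on an array where a share of 0.5 or more of its spots was flagged so.

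Graft, day and their interaction were tested in 1 fit of all 8 groups with limma 3.58.1 in R 4.3.3, with Benjamini-Hochberg adjustment over all probes, then read for the probe of each gene. Calls needed an adjusted p under 0.01 and a fold over 1.5, the thresholds named in the methods of the study. The procedure was tested on simulated data. Correlations were tested with exact permutation (scipy 1.17.1). Correlations of Col4a1 with Col4a2 and of Lamb1 with Lamc1 were planned and not run, since the partner had no named probe. Alternatives were normexp background correction (offset 50), quantile normalization, the percentile over 8558 probes detected on all arrays, the series matrix, outlier spots kept, a 2-way analysis of variance, a block for the replicate number, separate fits, dim probes left out, the mean of all probes, a 2-fold threshold, and each array left out in turn. Members and gene lists were chosen with earlier results of these data known. Laminin chains outside the members are counted in the list of further genes and not reported singly here. Genes were named by rule: the 4 members, at most 4 called genes of the other list per day, and the 5 genes most like the members.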

Additional observations from a re-analysis of the deposited data

Results flagged for a closer look

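In 48 sets of 8 arrays, 1 for each probe and group, 4 held an array that stood apart from the other 7 by Dixon's test (critical value 0.526), where chance gives about 1 in 20. Replicate 5 of BAM only at 90 days was the highest of its group for the brightest probes of Col4a1 (4.22), Lama5 (1.54) and Lamc1 (2.90). Without it the graft difference at 90 days was 0.28 for Col4a1 (adjusted p = 0.153), 0.29 for Lama5 (adjusted p = 0.118) and -0.06 for Lamc1 (adjusted p = 0.725), none of them called. Replicate 3 of seeded BAM at 7 days was the highest of its group for the dimmer probe of Lamc1 (-1.29).

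The graft difference of Col4a1 differed between days in the interaction test of limma. For 30 minus 7 days it was 1.19 with the brightest and 1.04 with the dimmer probe, and for 180 minus 7 days 1.06 and 1.07. With the dimmer probe alone it was also called for 90 minus 30 days (-1.42, adjusted p = 5.63e-06) and for 180 minus 90 days (1.46, adjusted p = 1.48e-06), where the brightest probe was not called. All 6 of these comparisons set slides against each other, and slide and group cannot be told apart.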

How the results depend on the processing

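Of 208 counts of called genes recomputed under an alternative, 190 stayed within 1.5 times the reported count. Counts of 0 that stayed at 0 are among these 190, such as that of the members at 180 days. Among the 4 members at 7 days, 0 were called with quantile normalization or a 2-fold threshold in place of 1. At 30 days 1 was called, Lama5, with normexp or the percentile over detected probes. From 7 to 30 days in seeded BAM 1 was called with quantile normalization, the percentile over detected probes or the mean of all probes, and in BAM only 1 with separate fits or a 2-fold threshold in place of 3. From 30 to 90 days in BAM only 2 were called with the mean of all probes and 0 with a 2-fold threshold, in place of 1. The graft difference between 30 and 90 days and between 90 and 180 days was called for 1 with the mean of all probes. Of the 41 further genes, 2 with quantile normalization and 0 with a 2-fold threshold were called at 7 days, 2 with separate fits at 30 days, and 1 with the mean of all probes and 0 with a 2-fold threshold at 90 days. The cause was not tested.

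Signs of some differences turned under an alternative. With the mean of all probes, the graft difference of Col4a1 at 90 days was -0.47 (adjusted p = 0.0164). In BAM only Col4a1 was then 0.65 from 30 to 90 days (adjusted p = 0.000202), which is a call. It was -0.29 from 90 to 180 days in BAM only. The 2 probes of Col4a1 disagree in these comparisons. Lamc1 was then 0.15 from 7 to 30 days and -0.066 from 90 to 180 days in seeded BAM, and -0.021 from 30 to 90 days and -0.11 from 90 to 180 days in BAM only. With normexp, Lama5 was 0.012 at 7 days and -0.036 from 30 to 90 days in seeded BAM, Lamb2 0.021 at 180 days and Lamc1 0.0045 from 7 to 30 days in seeded BAM. With the percentile over detected probes, Lama5 was 0.050 at 7 days, -0.015 from 7 to 30 days and -0.080 from 90 to 180 days in seeded BAM.

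With each array left out in turn, the members called ranged from 0 to 1 at 7 days (0 without replicate 5 of seeded BAM) and at 30 days (1 without replicate 4 or 5 of seeded BAM or 7 of BAM only). From 7 to 30 days they ranged from 0 to 1 in seeded BAM and from 1 to 3 in BAM only, and from 30 to 90 days in BAM only from 1 to 2. Values that crossed 0 were Col4a1 from 30 to 90 days in BAM only (-0.27 to 0.014), Lama5 at 7 days (-0.12 to 0.054) and at 180 days (-0.16 to 0.016), Lama5 in seeded BAM from 7 to 30 (-0.053 to 0.10), 30 to 90 (-0.0026 to 0.16) and 90 to 180 days (-0.058 to 0.11), Lamb2 at 180 days (-0.11 to 0.042) and in seeded BAM from 90 to 180 days (-0.16 to 0.012), and Lamc1 from 7 to 30 days in seeded BAM (-0.0615 to 0.040) and from 90 to 180 days in BAM only (-0.032 to 0.14).

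Replicate numbers are shared across groups and equal the place on the slide. Same-numbered arrays of the grafts correlated from -0.28 to 0.33 over 32 pairs, 9 of them above 0.1 and 6 highest with their own number. They share a number and a place on the slide, and the part of that place in the values was not tested. With the replicate as a block the members called stayed at 1 at 7 days, 0 at 30, 90 and 180 days and 3 from 7 to 30 days in BAM only. Of the named further genes the block ended the calls of Col15a1 at 7 days (adjusted p = 0.0111) and Col7a1 at 30 days (adjusted p = 0.0102).

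Over all genes at 90 days, 496 were called higher and 1108 lower, against 324 and 147 with normexp, and the median difference moved from -0.16 to 0.07. At 7 days the split of 413 and 805 became 546 and 549 with the percentile over detected probes, and the median moved from -0.13 to -0.03. Dim signal limits the late days, where fewer spots stood well above background.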
